A study of Mus musculus with 15 samples.

Results

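The genes described here are 10 mouse genes whose human counterparts are mutated in congenital or juvenile cataract and which encode neither crystallins, membrane channels nor transcription factors. They are Fyco1, Nhs, Gcnt2, Chmp4b, Galk1, Wfs1, Sipa1l3, Agk, Ftl1 and Lemd2. They were chosen by symbol and not by a rule on measured values, but with earlier results of these data known. They are 10 of the 14615 gene symbols with values, and all 10 passed the filter on low values (at least 1 FPKM in at least 3 libraries). FPKM is a fragment measure that the authors scaled for transcript length and library, and a gene's level here is the sum over its transcripts.

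The lens grows from a vesicle of surface ectoderm whose rear cells elongate into fibres while its front cells stay an epithelium. Fibres fill with crystallins, build ordered membranes on an actin scaffold and later lose their nuclei and organelles, and light passes only as long as this order holds. The 10 genes serve different parts of that cell: autophagosome transport (Fyco1), membrane scission (Chmp4b), the nuclear envelope (Lemd2), actin and cell shape (Nhs, Sipa1l3), the endoplasmic reticulum (Wfs1), mitochondria (Agk), sugar and glycan chemistry (Galk1, Gcnt2) and iron storage (Ftl1).

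RNA-seq was made from dissected lenses of wild-type C57BL/6NTac mouse embryos at 4 stages 2 days apart, from embryonic day E10.5 to E16.5, with 3 libraries per stage. In order of stage, 50, 29, 18 and 17 lenses were pooled per library. The reference was 3 libraries of whole embryos of the same strain, called whole body, whose age label spans E10.5 to E12.5 and whose titles do not say which days each library holds. The stages E14.5 and E16.5 are older than any whole-body embryo, so tissue and age cannot be told apart in those comparisons. The 4 comparisons with whole body share the same 3 reference libraries. All groups carry the same genotype and no treatment.

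The read depth behind the values is unknown. Lens markers were higher in every lens group than in whole body. Early lens genes (Pax6, Foxe3 and 5 others) summed to 1248 to 1381 FPKM at E10.5 and 3663 to 4087 at E16.5, against 94.02 to 100.89 in whole body. Fibre genes (Mip, Bfsp2 and 7 others) summed to 184 to 292 FPKM at E10.5 and 103495 to 131707 at E16.5, with 2.55 to 2.72 in whole body. The 16 crystallin genes took 0.0463% to 0.0670% of all FPKM at E10.5 and 28.2% to 37.3% at E16.5. Leaving them out and setting the remaining totals equal moved the median log2 fold change of all genes by -0.48 for E16.5 against whole body, -0.40 for E14.5 and -0.18 for E12.5, and by -0.38 for E16.5 against E10.5. Quantile normalization moved it by 0.10 for E10.5 and 0.11 for E14.5 against whole body. Liver markers summed to 485, 12.9 and 878 FPKM in E10.5 libraries 1, 2 and 3. Alb, a gene of that list, was under 1 FPKM in all 3, so the sums came from the other listed genes. Macrophage markers summed to 139 to 161 FPKM at E10.5 and 6.77 to 15.98 at E16.5. Neural retina markers summed to 1104 to 1298 FPKM at E10.5 and 33.0 to 40.6 at E16.5, against 209 to 227 in whole body. Their part in the E10.5 values was not tested. In pooled tissue, fewer cells of a type and less RNA per cell cannot be told apart.

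Most of the 10 genes were higher in the lens than in whole body from E12.5 on. At E10.5, 4 members (Galk1, Sipa1l3, Agk, Ftl1) were called higher, where 24.6% of all 14532 tested genes were, and 0 were called lower, where 31.2% of all genes were. A gene was called at an adjusted p under 0.05 (limma on log2 of FPKM + 1, Benjamini-Hochberg over all tested genes). At E12.5, 8 members were higher (32.3% of all genes) and 1, Gcnt2, was lower (37.1%). At E14.5, 7 were higher (35.7%) and 2, Gcnt2 and Agk, were lower (42.6%). The same counts held at E16.5, with 7 higher (36.8%) and 2 lower (43.4%). The members' median log2 fold change against whole body was 0.18, 0.69, 1.19 and 1.43 in order of stage, beside -0.03, -0.04, -0.10 and -0.11 for all genes.

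**Figure D1:**
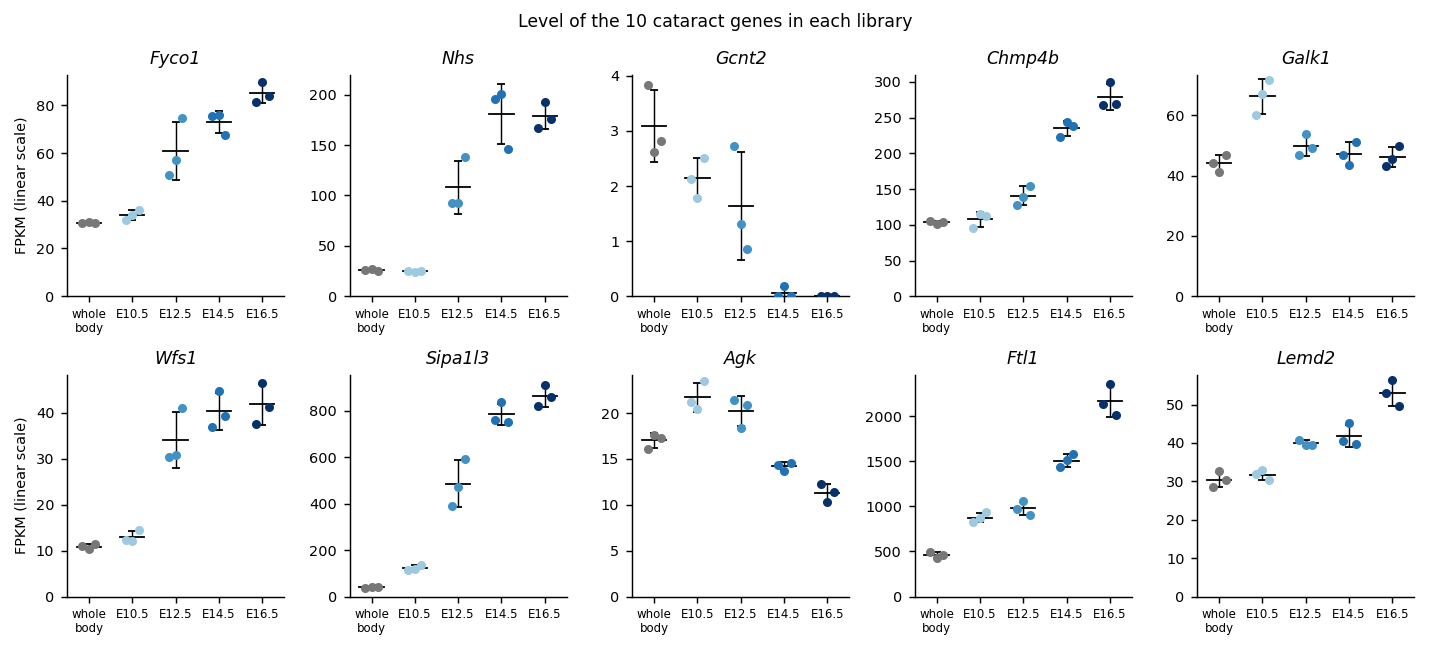
Level of each of the 10 genes in FPKM on linear axes that start at 0, with 1 point per library, a bar at the group mean and whiskers of 1 SD (n = 3). Sipa1l3 runs from 35.9 to 42.5 in whole body to 820.2 to 911 at E16.5, Gcnt2 is listed at 0 in all 3 E16.5 libraries, and Galk1 is highest at E10.5.

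Between E10.5 and E16.5 every member passed the test. Over that span 7 rose (37.2% of all genes did) and 3, Gcnt2, Galk1 and Agk, fell (36.7%), with a median of 1.31 for the members and -0.01 for all genes. The step from E10.5 to E12.5 raised 6 (29.5%) and lowered 1 (26.0%). From E12.5 to E14.5, 5 rose (21.2%) and 2 fell (22.4%). From E14.5 to E16.5, 2 rose, Ftl1 and Lemd2 (5.97%), and 0 fell (4.03%). Across longer spans, 7 were higher at E14.5 than at E10.5 (36.3%) and 3 lower (36.1%), and 6 were higher at E16.5 than at E12.5 (25.8%) and 2 lower (26.7%). A moderated F test over the 4 lens stages called all 10, as it did 77.3% of all genes.

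**Figure D2:**
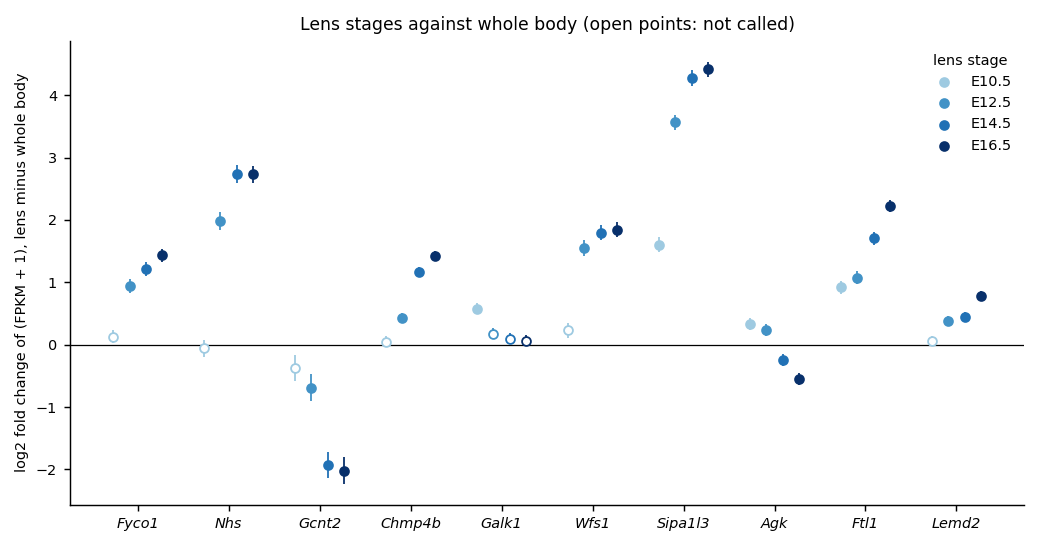
Difference of each lens stage from whole body as log2 of FPKM + 1, with whiskers of 1 standard error and open points for genes not called (limma, adjusted p of 0.05 or above). Sipa1l3 reaches 4.41 at E16.5; Agk passes from 0.33 at E10.5 to -0.55 at E16.5; Galk1 stays near 0 after E10.5 but is lower (-0.45 at E16.5) when crystallins are left out of the scaling; the Gcnt2 values at E14.5 and E16.5, where it is mostly listed at 0, depend on the 1 added to each FPKM.

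Fyco1 encodes an adaptor that links autophagosomes to a kinesin motor, and recessive mutations in it cause cataract. It lies on chromosome 9 (mm10, chr9:123789500-123851899, minus strand). Its level was 30.9, 31.1 and 30.5 FPKM in whole body and 31.7, 33.9 and 35.9 in the E10.5 lens. Values of 50.9, 57.0 and 74.5 followed at E12.5, 75.4, 75.9 and 67.7 at E14.5, then 81.5, 89.9 and 83.9 at E16.5. Lens libraries from E12.5 on all lay above every whole-body and E10.5 library. The lens exceeded whole body by 0.13 ± 0.11 on the log2 scale at E10.5 (standard error; 95% interval -0.10 to 0.36; limma adjusted p = 0.326) and by 1.43 ± 0.11 at E16.5 (adjusted p = 8.4e-09). The gene rose by 0.81 ± 0.11 from E10.5 to E12.5 (limma adjusted p = 1.77e-05). The next step, of 0.28 ± 0.11 (limma adjusted p = 0.0490), had overlapping libraries. Its call was kept without E12.5 library 3 or E14.5 library 3, was lost without any other single library (0.16 without E12.5 library 1), and was lost with crystallins left out (0.03) and under quantile normalization (0.16). With crystallins left out, the excess over whole body at E16.5 was 0.92 and the rise from E10.5 was 0.84.

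One assembled Fyco1 transcript stood out among its 4. The 8584-base form (class j, a splice pattern close to but not equal to an annotated one) was listed at 0 in the 3 E10.5 libraries and had 0.50, 0.54 and 0.24 FPKM in whole body. It reached 6.00, 10.2 and 15.2 FPKM at E12.5, 24.8, 12.2 and 18.6 at E14.5 and 24.7, 15.2 and 23.8 at E16.5. Its start differs from that shared by the other 3 transcripts. At E16.5 it made up 25.2% ± 7.24 of the gene's FPKM (SD, n = 3), against 1.38% ± 0.517 in whole body, and its level was higher by 3.94 ± 0.32 (log2 scale; limma over all transcripts, adjusted p = 6.07e-07). The 7692-base form, which matches the annotated transcript Fyco1-202, held the larger part in every group and rose by 1.03 ± 0.23 from E10.5 to E16.5 (limma adjusted p = 0.00353). The split of reads among transcripts is an estimate by the authors' software, and an exact 0 may be a failed estimate.

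Promoter windows from RefSeq (GRCm38.p6, 250 bases before and 50 after the start) were found for 9 of the 10 members, Lemd2 being the one without an entry, and 12 windows in all were searched on both strands. The bases before a Fyco1 start are shown because they hold a tandem repeat, at chr9:123851900-123852149 on the minus strand, 5′ to 3′. Capitals mark 4 adjoining copies of a 30-base unit, AAGCATGCCGGGAGTTGTAGGCCATCCGTG, the longest stretch found 4 times there.
Fyco1: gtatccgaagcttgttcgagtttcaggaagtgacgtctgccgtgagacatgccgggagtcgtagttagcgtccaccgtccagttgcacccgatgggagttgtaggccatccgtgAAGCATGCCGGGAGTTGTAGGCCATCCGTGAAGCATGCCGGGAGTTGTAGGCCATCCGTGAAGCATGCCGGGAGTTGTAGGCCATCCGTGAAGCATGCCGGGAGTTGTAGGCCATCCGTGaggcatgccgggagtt
Of 32851 RefSeq windows of this length, 1 held the unit (0.00304%), this one. Because the unit was taken from this window, the share does not measure how common such repeats are. The window of Chmp4b held no copy: its closest stretches of 18 bases differed from the repeat at 4 positions, in 4 places. How often other windows come as close was not tested. A match describes letters only and is no evidence of binding. Common promoter motifs were also searched: the GC box GGGCGG was in windows of 6 members (35.7% of all windows), the CCAAT box CCAAT in those of 4 (37.4%) and TATAAA in that of Ftl1 (13.6%). Paired heat shock half-sites (TTC and GAA, 2 bases apart) were in windows of 3 members (8.52%), and the Maf half-site TGCTGA was in none (19.5%).

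Chmp4b encodes a subunit of ESCRT-III (endosomal sorting complex required for transport), the filament that cuts membrane necks in endosome sorting, cell division and nuclear envelope closure, and dominant mutations in it cause cataract. It lies at chr2:154651705-154694785 on the plus strand. Whole-body libraries held 106, 101.4 and 104 FPKM and E10.5 libraries 95.7, 115 and 113. The level was 128, 139 and 155 at E12.5, 223, 244 and 238 at E14.5, then 268, 300.05 and 269 at E16.5. E10.5 and whole body overlapped, with a difference of 0.05 ± 0.08 (95% interval -0.13 to 0.22; limma adjusted p = 0.634), and the later stages did not overlap each other. Chmp4b rose by 0.38 ± 0.08 to E12.5 (limma adjusted p = 0.00109) and by 0.74 ± 0.08 to E14.5 (adjusted p = 7.75e-06). The last step was 0.25 ± 0.08 with an interval of 0.07 to 0.42 and missed the threshold after adjustment (limma adjusted p = 0.074). With crystallins left out, the rise from E10.5 to E16.5 was 0.89 in place of 1.37, and under quantile normalization it was 0.91. Nearly all of it came from the 1616-base form, Chmp4b-201, at 247, 275 and 254 FPKM at E16.5.

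Other genes of autophagosome transport and the LC3 family moved up with Fyco1. Of 14 tested besides Fyco1, 12 rose and 1, Map1lc3a, fell from E10.5 to E16.5, with a median of 1.10. Over that span 37.2% of all tested genes rose and 36.7% fell, shares that stand beside each such pathway count below. The pathway counts and medians, here and below, come from the main scaling alone. They were not repeated with crystallins left out, which moved the median of all genes by -0.38 over that span. Gabarapl1, an LC3-like protein of the autophagosome membrane, went from 43.2 ± 5.94 to 271 ± 26.9 FPKM (SD, n = 3), a log2 difference of 2.62 ± 0.12 (limma adjusted p = 4.39e-11). Epg5, which tethers autophagosomes to lysosomes, rose by 1.97 ± 0.13, and Klc1, a kinesin light chain, by 1.83 ± 0.08. At E10.5 the list was not raised over whole body: 1 gene was higher, 4 were lower and the median was -0.03.

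Among 15 tested ESCRT genes besides Chmp4b, 10 rose and 3 fell from E10.5 to E16.5, with a median of 0.48. Chmp2a, another ESCRT-III subunit, rose from 39.1 ± 4.47 to 148 ± 11.4 FPKM (log2 1.89 ± 0.09, limma adjusted p = 1.63e-10), more than Chmp4b. Tsg101, the ESCRT-I subunit that binds ubiquitinated cargo, rose by 0.91 ± 0.07, and Vta1, a cofactor of the disassembly ATPase, by 0.88 ± 0.09. The largest fall, of 1.48 on the log2 scale, was that of Chmp4c, a paralogue of Chmp4b (limma adjusted p = 7.07e-07), which averaged under 10 FPKM at both stages. The ATPase Vps4b fell by 0.19 (limma adjusted p = 0.0232) and Ist1 fell by 0.31 (adjusted p = 0.000275). From E14.5 to E16.5, 0 of the 15 were called in either direction (limma), at a median of 0.06.

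Lemd2 encodes a LEM domain protein of the inner nuclear membrane that recruits the ESCRT-III protein CHMP7 to the reforming nuclear envelope, and a recessive mutation in it causes juvenile cataract. It lies at chr17:27189600-27204469 on the minus strand, and its exons overlap the antisense gene Gm26724, from which it cannot be told apart if counting ignored strand. The level was 28.5, 32.6 and 30.3 FPKM in whole body, 31.9, 32.9 and 30.3 at E10.5, and 40.8, 39.5 and 39.6 at E12.5. It was 40.6, 45.1 and 39.7 at E14.5 and 53.1, 56.3 and 49.5 at E16.5. Whole body overlapped E10.5, and E12.5 overlapped E14.5, while these pairs and E16.5 did not overlap one another. Lemd2 rose by 0.32 ± 0.08 from E10.5 to E12.5 (limma adjusted p = 0.00200) and by 0.33 ± 0.08 from E14.5 to E16.5 (adjusted p = 0.0113). Without E14.5 library 3 or E16.5 library 2 the latter call was lost (0.30, adjusted p = 0.0514; and 0.29, adjusted p = 0.0603). With E10.5 libraries 1 and 3, those with the higher liver marker sums, both left out, the first step was 0.27, with only library 2 left at E10.5. With crystallins left out, the excess over whole body was 0.01 at E14.5 (limma adjusted p = 0.887) and 0.26 at E16.5 (adjusted p = 0.00464), and the rise from E10.5 to E16.5 was 0.25 in place of 0.72. With annotated transcripts alone that rise was 1.17, and the last step lost its call (0.36, limma adjusted p = 0.144).

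The nuclear lamina and LEM domain genes around Lemd2 mostly fell. Of 13 tested besides Lemd2, 1 rose and 7 fell from E10.5 to E16.5, at a median of -1.25. Lmnb1, the B-type lamin, went from 359 ± 37.3 to 69.6 ± 8.53 FPKM (log2 -2.35 ± 0.12, limma adjusted p = 3.06e-10). Tmpo, a LEM domain protein that binds lamins, fell by 1.93, and the lamin B receptor gene Lbr fell by 1.90. Lmna, the A-type lamin, rose by 0.87 ± 0.17 from 6.69 ± 1.86 to 12.8 ± 0.791 FPKM (limma adjusted p = 0.000327). Lemd2 thus went up while 7 of 13 of these genes went down.

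Nhs encodes a regulator of the WAVE actin-remodelling complex, and loss of the X-linked human gene causes Nance-Horan syndrome, with cataract and dental anomalies. The mouse gene lies at chrX:161833296-162159730 on the minus strand. Its level was 25.9, 27.3 and 24.96 FPKM in whole body and 25.2, 24.5 and 25.1 at E10.5. It was 92.8, 92.8 and 138 at E12.5, 196, 200.3 and 147 at E14.5, then 167, 193 and 175 at E16.5. The E10.5 lens overlapped whole body, and every later lens library lay above all 6 of these. The difference at E10.5 was -0.06 ± 0.14 (95% interval -0.35 to 0.24; limma adjusted p = 0.742). From E10.5 to E12.5 Nhs rose by 2.04 ± 0.14 (limma adjusted p = 2e-08) and from E12.5 to E14.5 by 0.75 ± 0.14 (adjusted p = 0.00053). The change from E14.5 to E16.5 was -0.01 ± 0.14, with an interval of -0.30 to 0.29 and overlapping libraries.

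Behind the equal totals at E10.5 and in whole body, the assembled Nhs transcripts differed. The 4881-base form, which matches the annotated Nhs-201, was listed at 0 in all 3 whole-body libraries and had 11.6, 10.49 and 13.3 FPKM in the E10.5 lens. It reached 86.7, 96.5 and 75.8 FPKM at E16.5. The 9048-base form also has Nhs-201 as its match, with 1.19, 4.58 and 1.05 FPKM in whole body and 1.55, 0 and 6.02 in the E10.5 lens. Forms matching Nhs-201 were therefore not absent from whole body. The 7941-base form (class j) made up 82.3% ± 0.83 of Nhs in whole body (SD, n = 3) and 33.6% ± 14.1 in the E10.5 lens. When transcripts matching the annotation alone were summed, Nhs at E10.5 exceeded whole body by 1.63 (limma adjusted p = 0.000203), so the E10.5 result turned on which transcripts were counted. At E16.5 the same sum exceeded whole body by 4.76 in place of 2.73, and its step from E12.5 to E14.5, 0.66, was not called (limma adjusted p = 0.0738).

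A further switch lay between E14.5 and E16.5, where the gene's total did not move. The 7941-base form had 56.8, 28.9 and 30.8 FPKM at E14.5 and 0.03, 0.08 and 0.01 at E16.5, a log2 difference of -5.19 ± 0.30 (limma over 48306 transcripts, adjusted p = 4.32e-06). The 7983-base form (class j) had at most 0.05 FPKM in whole body, E10.5 and E12.5. It had 0.04, 0.03 and 31.8 at E14.5 and 38.3, 24.65 and 18.6 at E16.5. Library 3 of E14.5 was the only one to hold both. Both forms have the same nearest annotated transcript, Nhs-202, and differ in start and by 42 bases in length, and the estimate that divides reads between them was not tested. Among the 38 assembled transcripts of the 10 members, this was the 1 called lower from E14.5 to E16.5, as 0.441% of all transcripts were, and 1 was called higher (1.04%). The step to E12.5 had 12 higher (9.86%) and 1 lower (7.4%), and the step from E12.5 to E14.5 had 4 higher (5.0%) and 2 lower (3.73%). Over the whole span 19 were higher (17.7%) and 5 lower (16.6%). Against whole body, in order of stage, 7, 16, 19 and 22 were higher (13.0%, 15.4%, 19.3% and 21.5%) and 1, 0, 2 and 3 were lower (13.6%, 15.2%, 20.3% and 22.1%).

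**Figure D3:**
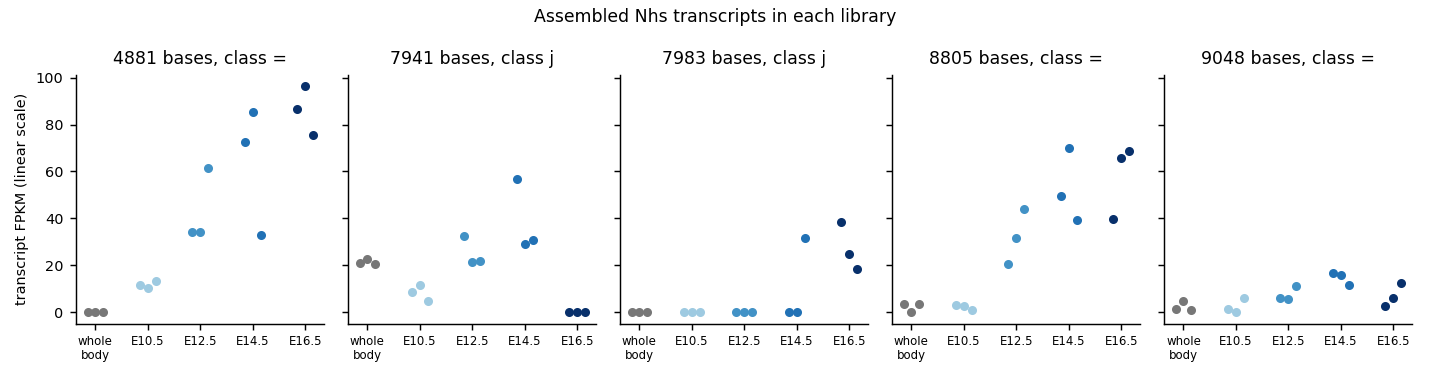
FPKM on linear axes of the 5 assembled Nhs transcripts, each named by its length and its class relative to the annotation (= for the same splice pattern, j for a partly shared one), with 1 point per library and colour for the group. The 4881-base form is at 0 in whole body and at 75.8 or more at E16.5, and the 7941-base form drops from 28.9 or more at E14.5 to 0.08 or less at E16.5 as the 7983-base form appears.

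In the Nhs family and the WAVE complex, 7 of 12 other genes rose and 3 fell from E10.5 to E16.5, at a median of 0.56. Cyfip2 went from 26.7 ± 4.83 to 199 ± 12.7 FPKM (log2 2.86 ± 0.15, limma adjusted p = 2.27e-10), while its paralogue Cyfip1 fell by 0.85 from 116 ± 7.26 to 64.0 ± 3.70. Abi2, another subunit, rose by 2.22 ± 0.12. Of the paralogues of Nhs, Nhsl1 rose by 1.34 ± 0.12 and Nhsl2 fell by 0.61 (limma adjusted p = 0.00338). At E10.5 the list stood below whole body, with 2 genes higher, 7 lower and a median of -0.27.

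Sipa1l3 encodes a Rap GTPase-activating protein that shapes the actin cytoskeleton and epithelial polarity, and its disruption causes cataract in humans and eye defects in mice. It lies at chr7:29320372-29518641 on the minus strand. Whole body held 35.9, 40.5 and 42.5 FPKM, the lowest group, and the E10.5 lens held 113, 118 and 137. The lens then held 392, 473 and 594 at E12.5, 761, 838 and 753 at E14.5, then 820.2, 911 and 859 at E16.5. Every lens library lay above every whole-body library, and only E14.5 and E16.5 overlapped. Against whole body the difference was 1.60 ± 0.12 at E10.5 (limma adjusted p = 3.67e-08) and 4.41 ± 0.12 at E16.5 (adjusted p = 1.59e-13), with 3.57 and 4.27 between, the highest of the 10 members at each stage. In mean FPKM the E16.5 level was 21.8 times that of whole body. Within the lens Sipa1l3 rose by 1.97 ± 0.12 to E12.5 and by 0.71 ± 0.12 to E14.5 (limma adjusted p = 0.000325), and the last step was 0.14 ± 0.12 (interval -0.12 to 0.40). The step to E14.5 was 0.33 under quantile normalization and 0.46 with crystallins left out, both still called (limma adjusted p = 0.017 and 0.00297).

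Its FPKM was spread over 14 assembled transcripts, many of them listed at 0 in single libraries. The 7555-base form, for example, had 199, 42.5 and 304 FPKM in the E14.5 libraries while the 7543-base form had 177, 308 and 29.4, so that levels of single forms varied between replicates far more than the sum did. With annotated transcripts alone, 6 of the 14, the E10.5 difference from whole body was -0.05 (limma adjusted p = 0.945). The step from E12.5 to E14.5 was then 0.57 (limma adjusted p = 0.404). Of these 6, the forms of 2660, 3697 and 6385 bases are annotated as retained introns and that of 537 bases as a processed transcript. The protein-coding form of 7713 bases was listed at 0 in every E10.5 and whole-body library. The coding form of 4321 bases reached at most 0.95 FPKM in them. The value of -0.05 therefore cannot decide whether the coding mRNA differed at E10.5. The total, not the single forms, carries the result. The upstream bases of Sipa1l3 are shown because it had the highest lens excess of the members, with the E-box CACGTG in capitals, a palindrome bound by helix-loop-helix proteins (chr7:29505461-29505710, minus strand, 5′ to 3′, RefSeq GRCm38.p6).
Sipa1l3: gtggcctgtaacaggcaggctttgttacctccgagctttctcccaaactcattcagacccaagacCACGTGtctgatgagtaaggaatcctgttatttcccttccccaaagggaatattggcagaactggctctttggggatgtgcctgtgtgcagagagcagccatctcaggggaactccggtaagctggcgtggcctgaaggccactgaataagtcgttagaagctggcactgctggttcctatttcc
This motif was present in 7.15% of all promoter windows and, among the members, in those of Sipa1l3 and Galk1, whose courses differed.

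The genes around Sipa1l3 did not move as a group. Of 17 tested genes of the Sipa1 family, Rap1 and cell polarity, 5 rose and 8 fell from E10.5 to E16.5, at a median of -0.09. Rapgef2, a Rap activator, rose by 2.03 ± 0.11, from 26.5 ± 1.99 to 111 ± 6.20 FPKM (limma adjusted p = 2.68e-10). Epha2, an ephrin receptor that is itself a cataract gene, rose by 1.94 ± 0.10 and at E16.5 stood 3.95 ± 0.10 above whole body. Sipa1l2 rose by 1.07 ± 0.10, whereas Sipa1 fell by 1.26 and the polarity gene Pard6b fell by 1.84.

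Wfs1 encodes wolframin, a membrane protein of the endoplasmic reticulum mutated in Wolfram syndrome and in dominant cataract. It lies at chr5:36966104-36989205 on the minus strand. Its level was 10.9, 10.3 and 11.3 FPKM in whole body and 12.3, 11.97 and 14.52 at E10.5, and it reached 30.3, 30.7 and 41.0 at E12.5. It was 36.8, 44.7 and 39.4 at E14.5 and 37.6, 46.4 and 41.3 at E16.5. The 3 later stages overlapped one another and lay above all earlier and whole-body libraries. Wfs1 rose by 1.32 ± 0.12 from E10.5 to E12.5 (limma adjusted p = 6.47e-07), and the later steps were 0.25 ± 0.12 (interval -0.02 to 0.51) and 0.05 ± 0.12 (interval -0.22 to 0.32). Without E12.5 library 3, the highest of its group, the step to E14.5 was 0.39 and was called (limma adjusted p = 0.0155). At E10.5 the difference from whole body was 0.23 ± 0.12 (interval -0.04 to 0.49), and under quantile normalization it was 0.42 and was called (limma adjusted p = 0.00609). At E16.5 the gene stood 1.85 ± 0.12 above whole body (limma adjusted p = 2.75e-09).

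Of 18 other genes of the endoplasmic reticulum stress response, 5 rose, 6 fell and 7 were not called from E10.5 to E16.5, at a median of 0.04. Herpud1, which serves degradation of misfolded proteins, rose by 1.93 ± 0.11 from 19.5 ± 3.51 to 76.3 ± 4.23 FPKM (limma adjusted p = 6.3e-10). The stress sensors and factors Atf6 and Atf4 rose by 1.28 ± 0.14 and 1.07 ± 0.07. Sdf2l1 fell most, by 1.29 (limma adjusted p = 2.14e-05), from 18.7, 22.3 and 23.1 FPKM at E10.5 to 8.53, 6.42 and 9.77 at E16.5. The chaperone Hspa5, also called BiP, fell by 0.67 from 818 ± 96.1 to 515 ± 58.8 FPKM (limma adjusted p = 0.000149), and the sensor kinase gene Eif2ak3 fell by 0.32.

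Agk encodes a lipid kinase of the mitochondrion that is also a subunit of the TIM22 translocase, which inserts carrier proteins into the inner membrane, and its loss causes Sengers syndrome with cataract and cardiomyopathy. It lies at chr6:40325172-40396762 on the plus strand. Whole body held 16.1, 17.6 and 17.3 FPKM, between the early and the late lens. The lens held 21.1, 20.4 and 23.5 at E10.5 and 21.4, 18.4 and 20.9 at E12.5. Later it held 14.4, 13.7 and 14.51 at E14.5, then 12.2, 10.3 and 11.4 at E16.5. In the sum over transcripts, all 6 early libraries lay above all 3 of whole body, and all 6 late ones below. The sum includes an 836-base form annotated as a retained intron, at 1.98, 2.03 and 1.05 FPKM at E12.5 and 0, 0.16 and 0 in whole body. The coding form, Agk-201, overlapped whole body at E12.5 (19.4, 16.3 and 19.8 FPKM against 16.1, 17.5 and 17.3). For the sum, the difference from whole body was 0.33 ± 0.10 at E10.5 (limma adjusted p = 0.0105) and -0.55 ± 0.10 at E16.5 (adjusted p = 0.000119). The calls at E12.5 (0.23, adjusted p = 0.0483) and E14.5 (-0.24, adjusted p = 0.0357) rested on single libraries. The first was lost without E12.5 library 1 (0.19) or any whole-body library, among others, and with crystallins left out (0.05), and the second without any one E14.5 library (-0.26 to -0.22), without whole-body library 2 or 3, and under quantile normalization (-0.08), while with crystallins left out it was -0.66 (limma adjusted p = 4.04e-05). The E16.5 value was then -1.04, and under quantile normalization -0.35. At E10.5 the call was lost without E10.5 library 3 (0.28, limma adjusted p = 0.05004). Without libraries 1 and 3, those with the higher liver marker sums, the difference was 0.25, with only library 2 left at E10.5. Within the lens, the fall of 0.88 from E10.5 to E16.5 was larger than the spread (limma adjusted p = 1.16e-06), and it was -1.33 with crystallins left out. The last step, -0.31 ± 0.10 (interval -0.52 to -0.09), missed the threshold (limma adjusted p = 0.0667) and passed it with crystallins left out (-0.38, adjusted p = 0.0302).

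Genes of TIM22 import and of the carriers it inserts moved in both directions. Of 9 tested besides Agk, 3 rose (Slc25a4, Slc25a11 and Timm22) and 3, all carriers, fell from E10.5 to E16.5, at a median of 0.10. Slc25a4, an ADP/ATP carrier, rose by 1.10 ± 0.09 from 258 ± 34.3 to 551 ± 26.0 FPKM (limma adjusted p = 6.2e-08), while the related Slc25a5 fell by 0.37. Timm22, the channel subunit itself, rose by 0.51 ± 0.09 (limma adjusted p = 0.000109). Slc25a11 rose by 0.96 ± 0.08 and the phosphate carrier Slc25a3 fell by 0.36.

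Galk1 encodes galactokinase, the entry enzyme of galactose use, and its deficiency causes cataract through galactitol in the lens. It lies at chr11:116008457-116012719 on the minus strand. The level was 60.2, 67.0 and 71.5 FPKM at E10.5 and 44.2, 41.2 and 46.7 in whole body. It was 46.9, 53.9 and 49.1 at E12.5, 46.8, 43.3 and 51.2 at E14.5, then 43.3, 45.5 and 49.8 at E16.5. The E10.5 libraries lay above all others, and the other 4 groups lay close together. Galk1 exceeded whole body by 0.58 ± 0.09 at E10.5 (limma adjusted p = 5.65e-05) and fell by 0.40 to E12.5 (adjusted p = 0.00136). At E16.5 the difference from whole body was 0.07 ± 0.09 (interval -0.12 to 0.25), but with crystallins left out it was -0.45 (limma adjusted p = 0.00026), and at E14.5 it was -0.34 (adjusted p = 0.0026). With crystallins left out, the step from E12.5 to E14.5 was called as well (-0.33, limma adjusted p = 0.00673, in place of -0.08), and all genes had a median of -0.58 at E16.5 against whole body.

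Around Galk1, 4 of 9 other genes of the galactose and polyol pathway rose and 4 fell from E10.5 to E16.5, at a median of -0.09. Ugp2, which makes UDP-glucose, rose by 1.17 ± 0.08 from 31.5 ± 1.39 to 72.3 ± 3.14 FPKM (limma adjusted p = 3.35e-09). The phosphoglucomutase genes parted, with Pgm2 rising by 1.07 ± 0.10 and Pgm1 falling to 8.72 ± 1.24 from 26.4 ± 0.572 FPKM. Akr1b3, the aldose reductase that makes galactitol, was not called from E10.5 to E16.5 (-0.09 ± 0.08, limma adjusted p = 0.318). At E16.5 it stood 0.93 ± 0.08 above whole body (limma adjusted p = 2.9e-08), and Sord, the next enzyme of the polyol route, stood 1.77 ± 0.20 above whole body.

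Gcnt2 encodes the enzyme that branches poly-N-acetyllactosamine chains into the I antigen, and its loss gives the adult i blood group, in some families with cataract. It lies at chr13:40859754-40960892 on the plus strand, and its exons overlap antisense genes (A730081D07Rik, Gm31683) that unstranded counting could not separate. The gene has several transcripts with first exons of their own; the only one with values here had Gcnt2-202 as its match, and the others were not analysed here. Its level was 3.83, 2.61 and 2.82 FPKM in whole body, 2.12, 1.79 and 2.51 at E10.5 and 2.73, 1.31 and 0.85 at E12.5. At E14.5 it was listed at 0, 0.19 and 0 FPKM, and at E16.5 at 0 in all 3 libraries. The early lens and whole body were low and close, and all late lens libraries lay below them. Gcnt2 was called lower than whole body at E14.5 (limma adjusted p = 6.55e-07) and at E16.5 (adjusted p = 3.68e-07) and fell within the lens between E12.5 and E14.5 (adjusted p = 0.000263). No fold is given against groups listed at 0. The call at E12.5 (-0.69 ± 0.21, limma adjusted p = 0.00915) was lost without E12.5 library 3 (-0.47, adjusted p = 0.0557) and with quantile normalization (-0.22, adjusted p = 0.383).

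Markers of periocular mesenchyme, the tissue around the lens, were, like Gcnt2, lower at E14.5 and E16.5 than in the earlier lens and whole body. The 9 genes of that list used here (Foxc1, Col1a1, Pdgfra and others) summed to 1648 to 1839 FPKM in whole body, 358, 340.3 and 2897 at E10.5 and 1154, 505 and 421 at E12.5. At E14.5 the sums were 183 to 214 and at E16.5 180.01 to 242, with Twist1, Prrx1 and Lum under 1 FPKM in every E16.5 library. Within E10.5 and within E12.5 the library highest in these markers was also highest in Gcnt2 and the lowest was lowest. Within whole body, by contrast, the library with the lowest marker sum had the highest Gcnt2 and that with the highest sum the lowest. The 2 genes most like Gcnt2 over the 15 libraries were Cxcl12 (Pearson r = 0.988) and Pcdh18 (0.985). Endothelial markers summed to 553 to 607 FPKM at E10.5 and 86.4 to 158 at E16.5. Their part in the Gcnt2 result was not tested.

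**Figure D4:**
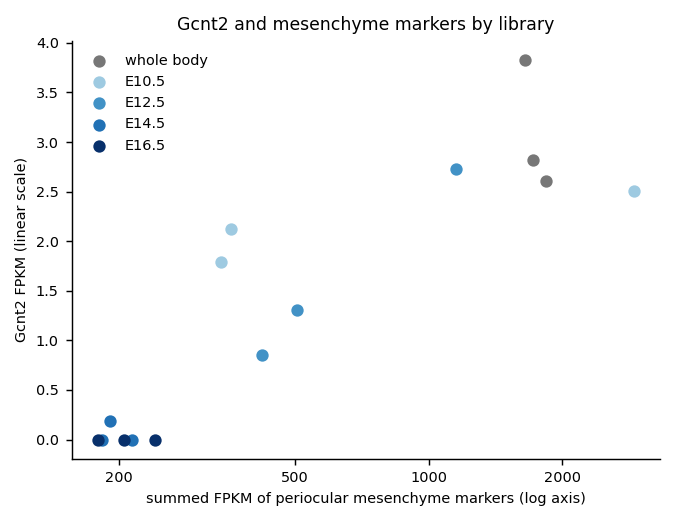
Gcnt2 in FPKM (linear axis) against the summed FPKM of 9 periocular mesenchyme markers (log axis), with 1 point per library and colour for the group. The 6 libraries of E14.5 and E16.5 lie at 0 to 0.19 FPKM of Gcnt2 and at most 242 FPKM of markers, and E10.5 library 3 has the highest marker sum, 2897.

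Other enzymes of these glycan chains mostly fell too. Of 10 tested besides Gcnt2, 2 rose and 7 fell from E10.5 to E16.5, at a median of -0.78. B4galt6 fell by 1.30, from 35.6 ± 2.52 to 13.8 ± 1.16 FPKM (limma adjusted p = 1.94e-08), and B4galt1 fell by 0.94. B3gnt5, which starts lacto-series chains on lipids, rose by 2.66 ± 0.15 from 29.2 ± 1.38 to 191 ± 25.3 FPKM (limma adjusted p = 7.7e-10).

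Ftl1 encodes the ferritin light chain, which with the heavy chain Fth1 forms the iron storage shell. Its mRNA carries an iron-responsive element in the leader, a hairpin that holds back translation when iron is scarce, and human mutations of that hairpin cause hyperferritinaemia with cataract. The element is shown because the disease mutations hit it, beside that of Fth1; capitals mark the loop. Both were found in GENCODE vM21 transcripts on GRCm38 and lie in exon 1, Ftl1 at chr7:45459778-45459807 (minus) and Fth1 at chr19:9982732-9982761 (plus), 5′ to 3′ in DNA letters.
Ftl1: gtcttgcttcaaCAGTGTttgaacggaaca
Fth1: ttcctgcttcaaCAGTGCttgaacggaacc
A search for a bulged C, a paired 5-base upper stem and a CAGTGN loop found a match in the leaders of 31 of 20883 protein-coding genes (0.148%), among them 3 of 15 in the iron list (Ftl1, Fth1, Slc40a1) and 1 of 10 members.

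Ftl1 was by far the most abundant member. Its level was 496, 430 and 463 FPKM in whole body and 828, 867 and 932 at E10.5. It was 974, 1054 and 905 at E12.5, 1436, 1510 and 1576 at E14.5, then 2133, 2360.2 and 2014 at E16.5. Every lens library lay above whole body, E10.5 and E12.5 overlapped, and E14.5 and E16.5 each stood clear of the stages before. Against whole body the difference was 0.92 ± 0.10 at E10.5 (limma adjusted p = 1.65e-06) and 2.23 ± 0.10 at E16.5 (adjusted p = 2.61e-11). The steps within the lens were 0.16 ± 0.10 (interval -0.05 to 0.37), 0.63 ± 0.10 (limma adjusted p = 0.000152) and 0.52 ± 0.10 (adjusted p = 0.0037). Under quantile normalization, which forces the same distribution on all libraries, the rise from E10.5 to E16.5 shrank to 0.21 and lost its call (limma adjusted p = 0.0707), and the excess over whole body at E16.5 was 0.89. Both later steps lost their calls as well, at 0.13 (limma adjusted p = 0.318) and 0.23 (adjusted p = 0.168). With crystallins left out, the rise from E10.5 to E16.5 was 0.83. Near copies of Ftl1 elsewhere (Ftl1-ps1, Ftl1-ps2, Ftl2-ps) could share its reads, so the level is uncertain.

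Of 13 other genes of iron uptake, storage and export, 6 rose and 4 fell from E10.5 to E16.5, where 37.2% and 36.7% of all genes did. Fth1 rose by 0.89 ± 0.10, from 345 ± 22.4 to 640 ± 50.9 FPKM (limma adjusted p = 8.56e-07). The transferrin receptor gene Tfrc fell by 0.65 from 94.9 ± 7.65 to 59.8 ± 1.41 FPKM. Aco1 fell by 0.75, Pcbp2 by 0.62 and Steap3 by 1.09. Ncoa4, which sends ferritin to lysosomes, rose by 0.65 ± 0.10. Hmox1, which releases iron from haem, had 17.48, 19.1 and 17.4 FPKM at E10.5, 33.1, 35.5 and 31.6 at E14.5 and 477, 413 and 238 at E16.5, a rise of 4.26 ± 0.20 over the whole span (limma adjusted p = 6.88e-11). It was the 1 gene of this list called higher from E14.5 to E16.5. Erythroid markers summed to 1599 to 3793 FPKM at E10.5 and 120.71 to 251 at E16.5, and their part in these values was not tested.

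**Figure D5:**
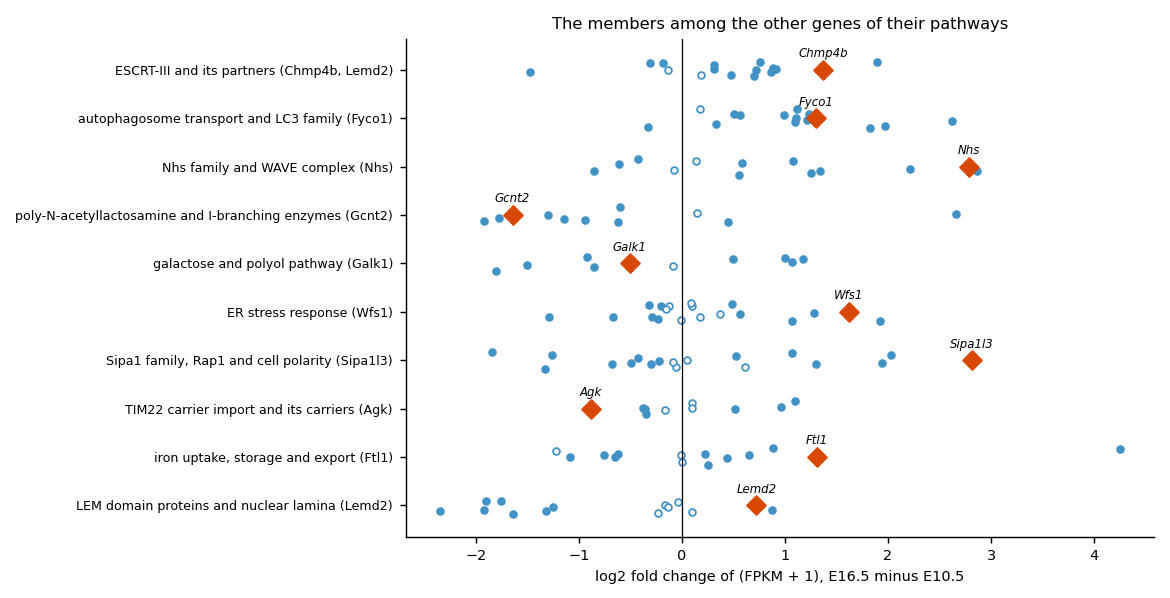
Log2 difference in FPKM + 1 between E16.5 and E10.5 for the 10 members (diamonds) and the other tested genes of their pathway lists (circles, filled when called by limma at an adjusted p under 0.05, with vertical scatter for legibility). Autophagosome genes lie mostly right of 0 around Fyco1 (median 1.10), and lamina genes mostly left of 0 (median -1.25) while Lemd2 is at 0.72 (0.25 with crystallins left out, 1.17 with annotated transcripts alone); Gcnt2 is listed at 0 at E16.5, so its place depends on the 1 added.

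The members fell into courses that can be set side by side. Over the 15 libraries, which share stage and crystallin content, Fyco1, Nhs and Wfs1 were closest to one another (Pearson r = 0.983 for Fyco1 and Nhs, 0.983 for Nhs and Wfs1, 0.980 for Fyco1 and Wfs1, on log2 of FPKM + 1). Sipa1l3 followed Wfs1 at 0.972, and Chmp4b and Gcnt2 ran opposite at -0.959. Among the 9656 genes searched, the most like Sipa1l3 was Npl (0.998), followed by the crystallin gene Cryge (0.998). Plec was most like Nhs (0.997), Cpt2 most like Chmp4b (0.998), Hlcs most like Wfs1 (0.996) and Pigs most like Fyco1 (0.994). For Ftl1 it was Ndufs5 (0.985), for Lemd2 Plxna3 (0.975), for Galk1 Ajuba (0.955) and for Agk Iqgap2 (0.950).

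Per length, the members spanned the range of expression in the lens. At E16.5 the mean level of Ftl1 lay above 99.6% of all symbols, Sipa1l3 above 99.0%, Chmp4b above 95.8% and Nhs above 92.4%. In whole body, Sipa1l3 lay above 67.2% and Nhs above 55.5% of symbols. Wfs1 went from 35.2% in whole body to 66.9% at E16.5 and Fyco1 from 60.0% to 82.2%. Agk went from 52.3% at E10.5 to 39.6% at E16.5, and Galk1 from 81.0% to 69.3%.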

How the data were processed

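Gene expression was measured by RNA-seq in 12 lens and 3 whole-embryo libraries, 3 per group, which the labels call biological replicates. The deposited values are FPKM for each transcript that the authors assembled. The submitters' processing notes name mm10, Cuffnorm, Cufflinks, TopHat2 2.0.9 and Trimmomatic; the order of steps, normalization setting, strand use and read depth are not given in the sources used here, so no error from depth can be stated.

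Transcripts of a symbol were summed, without 172 transcripts of class x (exons on the other strand). A gene was kept if 3 or more libraries reached 1 FPKM, and 3 genes at 0 beside a replicate of at least 50 FPKM were left out, leaving 14532. Tests used limma 3.58.1 (R 4.3.3) on log2(FPKM + 1), 1 mean per group over all 15 libraries, trended eBayes and Benjamini-Hochberg adjustment per contrast, with 10 residual degrees of freedom; transcripts were fitted the same way over all 48306. A fold change on this scale understates the change of low genes. The fit was tested on simulated data with 200 changed genes: for E16.5 against whole body it recovered 73% of 1.5-fold and 95% of 2-fold changes and called 11 unchanged genes among 14532. The changed genes were drawn from those above 10 FPKM in whole body, and the noise was normal with the fitted spread. These rates therefore do not cover low genes such as Gcnt2 or a shift in scaling.

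The members, pathway lists and marker lists were chosen with earlier results of these data known, and 1 gene of the mesenchyme list is not reported here and was left out of its sums. Pathway genes were named by a rule: up to 3 at each end of the fold changes per list, called, where the higher group averaged 10 FPKM or more. Chmp4c and Steap3, which averaged less at E10.5 and E16.5, were named besides. The 2 genes most correlated with each member, among genes averaging 10 FPKM or more over all libraries, were also taken. Alternatives were another pseudocount (0.1), no filter, quantile normalization, crystallins left out, annotated transcripts only, a replicate block, fits of only the 2 groups, eBayes without the trend and leaving out each library. Coordinates are from GENCODE vM21 (GRCm38, the same assembly as mm10) and promoter sequences from RefSeq. Figures used matplotlib 3.10.9.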

Additional observations from a re-analysis of the deposited data

Results flagged for a closer look

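Agk, the mitochondrial lipid kinase gene, summed over its transcripts, lay above whole body in all 6 libraries of E10.5 and E12.5 and below it in all 6 of E14.5 and E16.5. Its coding form alone, Agk-201, overlapped whole body at E12.5. For the sum, the difference between the stages' departures from whole body was -0.5767 on the log2 scale for E14.5 against E10.5, -0.8828 for E16.5 against E10.5, -0.4775 for E14.5 against E12.5 and -0.7836 for E16.5 against E12.5. Since the same whole-body libraries enter both sides, each of these equals the direct difference between the lens stages, which limma called in all 4 cases (adjusted p = 9.8e-05, 1.16e-06, 0.00136 and 1.32e-05). No group held 4 or more libraries, so single libraries were not screened as outliers.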

How the results depend on the processing

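Of the values of single members under alternatives, 1828 kept direction and call, 59 lost the call, 9 gained it and 24 changed direction; for these changes the cause was not tested. Depth is unknown and limits low genes such as Gcnt2 in a way that cannot be stated. The alternative without E10.5 libraries 1 and 3 was chosen after seeing the data; it reversed 0 members and ended 4 calls.

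With crystallins left out and totals equal, Galk1 against whole body was -0.0131, -0.34 and -0.45 at the last 3 stages, Chmp4b at E10.5 was -0.000598 against whole body, Wfs1 was -0.0336 from E14.5 to E16.5 and Lemd2 -0.18 from E12.5 to E14.5; 1 member was then called lower from E14.5 to E16.5, and 1 member transcript lower at E12.5 against whole body. Quantile normalization gave 0.0288 for Nhs, 0.0778 for Gcnt2 (both E10.5 against whole body), -0.0479 for Galk1 (E16.5 against whole body) and -0.15 for Ftl1 (E12.5 against E10.5); it left 0 members lower at E12.5 and 1 lower at E14.5 against whole body, and 3 higher from E12.5 to E14.5 and 1 from E14.5 to E16.5. With annotated transcripts only, Fyco1 was -0.11 (E14.5 against E12.5), Nhs 1.63 (E10.5 against whole body) and 0.25 (E16.5 against E14.5), and Sipa1l3 -0.0497 and Lemd2 -0.26 (E10.5 against whole body), with 2 members higher from E12.5 to E14.5 and 1 from E14.5 to E16.5. A pseudocount of 0.1 gave 0 members lower at E12.5 and 2 member transcripts lower at E10.5 against whole body, and a fit of the 2 groups alone gave 0 lower at E12.5 and 1 higher from E14.5 to E16.5. Without the trend, 1 member was lower from E14.5 to E16.5.

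Leaving out 1 library at a time gave 0 to 1 members lower than whole body at each of the first 2 stages and 1 to 2 at the next, 1 to 2 lower from E10.5 to E12.5 and 1 to 3 higher from E14.5 to E16.5. The step from E14.5 to E16.5, small in these genes, ran from -0.15 to 0.0741 for Nhs (0.0572, 0.0741, 0.0395 and 0.00507 in the 4 that turned), -0.0844 to 0.0332 for Galk1 (0.0332 and 0.0177), -0.0272 to 0.13 for Wfs1 (-0.0114 and -0.0272) and -0.13 to 0 for Gcnt2, with 0 without E14.5 library 2.

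The replicate numbers do not pair the libraries by any label, and 4 of 30 same-number correlations were above 0.1 (range -0.0946 to 0.237). With a replicate block, 7 members were higher than whole body at E12.5 in place of 8 and 4 rose from E12.5 to E14.5 in place of 5; 1 member transcript was lower at E14.5 against whole body and 1 from E12.5 to E14.5, in place of 2 each. Filtering low values or not changed no member's call.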
